A study of Mus musculus with 12 samples.

Results

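The genes of the somite segmentation clock and its Notch signalling were examined in whole mouse embryos at embryonic day 9.5 that differed in their copies of the whirligig allele of Chd7. The set comprised 10 genes chosen by symbol: the Notch ligand genes Dll1 and Dll3, the Notch modifier gene Lfng, the feedback genes Hes7 and Nrarp, the transcription factor genes Tbx6, Msgn1, Mesp1 and Mesp2, and Ripply2. Every non-control probe whose transcript identifier mapped to one of them was taken, which gave 12 probes among 39429 on the array, or 10 of 32496 genes and identifiers. Dll3 and Tbx6 had 2 probes each, and the single Dll1 probe was printed as 10 spots. RNA came from 4 Chd7Whi/Whi, 4 Chd7Whi/+ and 4 Chd7+/+ embryo samples, called homozygous, heterozygous and wild type below. All samples were labelled female and came from the whirligig line on a mixed C3HeB/FeJ background. Matings were between heterozygotes, so the mother of every embryo carried the allele. Per the labels, each genotype had 4 biological replicates, and it is not stated whether a sample was 1 embryo or a pool. The allele was carried in every tissue, and the whole embryo was measured without its yolk sac. No array probe was matched to Chd7, so the targeted gene could not serve as a check of the genotype labels.

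Somites are the blocks of mesoderm from which vertebrae, ribs and skeletal muscle form, and they bud off in pairs from the front of the presomitic mesoderm. In that tissue an oscillator made of Notch, Wnt and Fgf pathway genes, the segmentation clock, sets the rhythm. Hes7 represses its own transcription and that of Lfng in each cycle, and a Tbx6- and Notch-dependent pulse of Mesp2 marks where the next boundary forms. At this stage the tail bud and presomitic mesoderm are a small fraction of the embryo, so transcripts of that tissue were diluted by RNA of all others. The tissue that a member's signal came from was not measured. In such bulk samples, fewer expressing cells and less RNA per cell cannot be told apart.

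The arrays were 1-colour Agilent arrays, and the level used is log2 of the deposited processed signal minus log2 of the 75th percentile of that signal on the same array, so that 0 is the 75th percentile. That percentile lay between 1095 and 1721 intensity units, the share of probes well above background was 69.3% to 75.7%, and no spot was saturated. The 12 arrays lay on 3 slides, each with all 3 genotypes. One array stood apart from the rest. On heterozygous replicate 1 the atrial peptide gene Nppa had an intensity of 34.4, against 3245 to 8899 on the other 11 arrays, and the ventricular myosin light chain gene Myl2 had 222.3, against 12140 to 24760. The mean of 6 heart markers on this array was 4.82 log2 units below the wild-type mean, whereas it was between -0.37 and 0.57 on the other 11 arrays. The same array carried far more signal for posterior genes. Evx1, a homeobox gene of the tail bud, had an intensity of 2338, against 15.4 to 225.4 elsewhere. T, the brachyury gene of the primitive streak and tail bud, had 2898, against 323.0 to 639.4. The comparisons with heterozygotes below give the member counts, and the fold changes that moved most, with and without it.

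The promoters of 4 members that hold short motifs searched for here are shown. They are Nrarp, the member with the smallest p in the comparison of homozygotes with wild type, Lfng, and the neighbouring pair Mesp1 and Mesp2. Each window runs from 250 bases before to 50 bases after the start of the gene, taken from RefSeq on build GRCm38.p6, and the sequences are written 5′ to 3′ on the strand of the gene. Capitals mark TGGGAA, the core bound by Rbpj, CACGTG, an E-box, and AGGTGT, a T-box half-site, on either strand. Hes7 and Msgn1 also hold TGGGAA, and their windows are not shown. The Nrarp window is chr2:25180508-25180807 on the plus strand and the Lfng window chr5:140607091-140607390 on the plus strand. Mesp1 lies at chr7:79793541-79793840 on the minus strand and Mesp2 at chr7:79810477-79810776 on the plus strand.
Nrarp: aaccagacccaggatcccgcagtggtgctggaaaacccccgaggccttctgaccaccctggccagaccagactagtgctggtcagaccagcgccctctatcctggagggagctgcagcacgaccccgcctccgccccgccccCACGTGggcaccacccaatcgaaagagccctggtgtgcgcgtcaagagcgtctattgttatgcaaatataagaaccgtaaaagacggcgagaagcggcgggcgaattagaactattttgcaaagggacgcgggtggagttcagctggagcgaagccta
Lfng: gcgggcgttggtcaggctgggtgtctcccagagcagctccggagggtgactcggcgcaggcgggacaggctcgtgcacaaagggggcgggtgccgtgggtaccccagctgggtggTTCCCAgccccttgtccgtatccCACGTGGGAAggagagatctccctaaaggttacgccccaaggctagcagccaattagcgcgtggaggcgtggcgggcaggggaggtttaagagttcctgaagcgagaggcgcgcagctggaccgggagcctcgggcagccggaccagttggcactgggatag
Mesp1: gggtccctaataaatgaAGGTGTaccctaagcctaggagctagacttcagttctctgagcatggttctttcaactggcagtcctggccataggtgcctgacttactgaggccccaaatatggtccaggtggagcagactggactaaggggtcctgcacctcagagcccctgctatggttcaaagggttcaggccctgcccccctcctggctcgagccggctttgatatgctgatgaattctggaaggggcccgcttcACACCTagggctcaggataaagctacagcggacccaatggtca
Mesp2: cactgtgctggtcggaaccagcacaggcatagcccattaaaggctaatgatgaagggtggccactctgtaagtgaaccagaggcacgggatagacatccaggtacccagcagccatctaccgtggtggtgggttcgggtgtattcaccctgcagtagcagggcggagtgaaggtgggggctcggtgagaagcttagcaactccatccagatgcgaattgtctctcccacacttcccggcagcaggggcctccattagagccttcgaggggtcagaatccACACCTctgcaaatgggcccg

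All 10 members matched the promoter table, with 11 windows because Dll1 had 2. CACGTG occurred in 2 of the 11 windows, at position -108 from the start in Nrarp and -112 in Lfng, and in 7.15% of 32851 windows of all genes. TGGGAA occurred in 3 of 11 windows, those of Lfng, Hes7 and Msgn1, and in 25.6% of all windows. In Lfng the copy at position -108 overlaps the CACGTG, and a second copy lies at -135 on the other strand. AGGTGT occurred in 2 of 11 windows, at -233 and 8 in Mesp1 and at 30 in Mesp2, and in 13.7% of all windows. The looser E-box CANNTG, which contains CACGTG, was in 10 of 11 windows and in 72.3% of all windows. These matches are of letters only, and no binding was measured.

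In homozygous embryos, 7 of the 8 members that could be tested had lower mean levels than in wild type, but none passed the test over all genes. Of all 22576 genes tested, 305 passed (limma, Benjamini-Hochberg adjusted p below 0.05), or 1.35%. At an unadjusted p below 0.05 the members counted 4 of 8 (Nrarp, Dll3, Ripply2 and Dll1, all lower), against 17.0% of all genes tested and 8.30% counting lower genes alone. The median log2 fold change of the 8 was -0.67, where that of all tested genes was 0.021, and 46.5% of all tested genes had a fold change below 0. Mesp1 and Msgn1 were left out by the filter, which asks that some genotype have a signal well above background on each of its 4 arrays. With no such filter, 9 of the 10 members were negative, against 42.1% of all genes. Mesp2 passed the filter only through the heterozygotes, in which all 4 arrays were well above background, against 2 homozygous and 3 wild-type arrays. Its place among the tested members thus owes to the group where it was high. Without Mesp2, 6 of 7 members were negative, the median was -0.52, and 4 of 7 had an unadjusted p below 0.05 in limma.

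**Figure D1:**
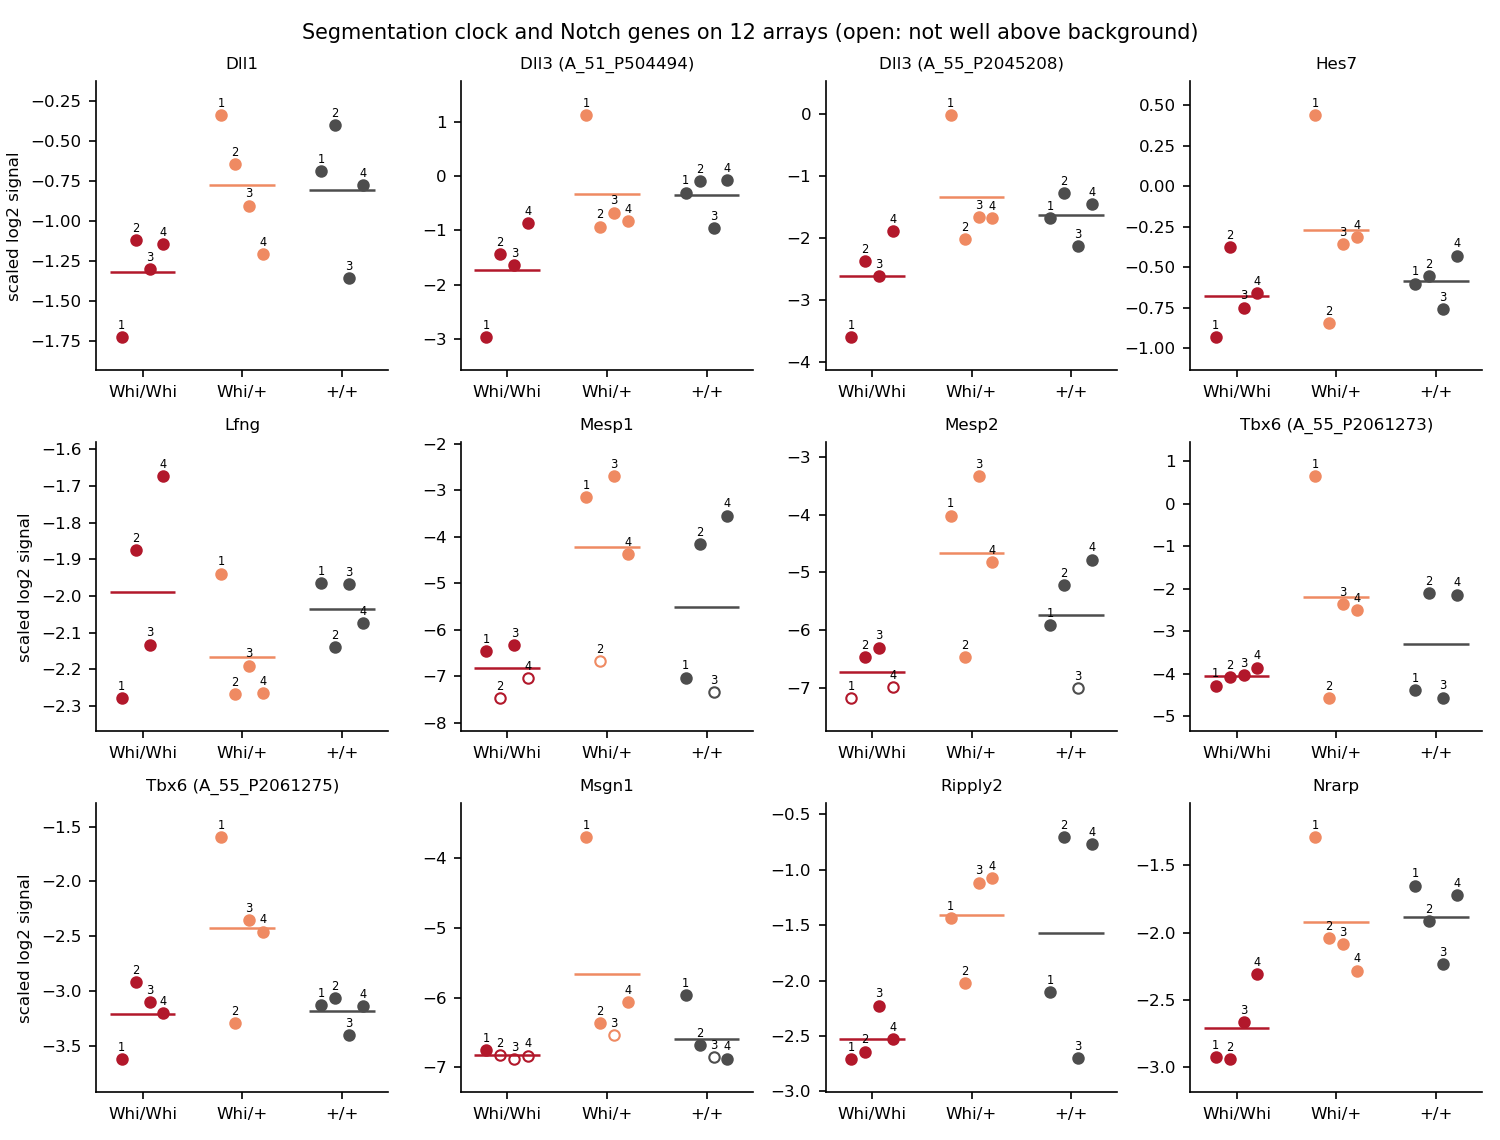
Scaled log2 signal (0 = 75th percentile of the array) of each of the 12 member probes on the 12 arrays, with homozygotes left, heterozygotes in the middle and wild type right. Points are arrays and bars are genotype means; Nrarp is the tested member whose 4 homozygous arrays all lie below the 4 wild-type arrays.

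The ligand genes were lower on average in homozygotes with wide spreads. Dll1 encodes the ligand that activates Notch in the presomitic mesoderm. Its scaled log2 signal was -1.73, -1.12, -1.30 and -1.14 in homozygotes, -0.34, -0.64, -0.91 and -1.21 in heterozygotes, and -0.69, -0.40, -1.36 and -0.78 in wild type. The homozygous and wild-type ranges overlapped, since wild-type replicate 3 lay below 3 of the 4 homozygous arrays. Group means were -1.32 ± 0.28 in homozygotes, -0.77 ± 0.37 in heterozygotes and -0.81 ± 0.40 in wild type (SD, n = 4 each). The log2 fold change of homozygotes over wild type was -0.52 ± 0.23 (SE), with an adjusted p of 0.283 in limma. The 10 spots of the Dll1 probe differed by an SD of 0.025 to 0.166 within an array, smaller than the SDs between arrays of a genotype.

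Dll3 encodes a divergent ligand that does not activate Notch in neighbouring cells and is needed for regular somites. Its tested probe read -2.97, -1.43, -1.65 and -0.86 in homozygotes, 1.14, -0.93, -0.67 and -0.83 in heterozygotes, and -0.30, -0.09, -0.96 and -0.07 in wild type. Homozygous replicate 1 was the lowest of all 12 arrays and heterozygous replicate 1 the highest, and homozygous replicate 4 lay inside the wild-type range. The fold change of homozygotes over wild type was -1.37 ± 0.50 on the log2 scale (limma, adjusted p = 0.211), and -0.96 without homozygous replicate 1. The second Dll3 probe showed the same lowest and highest arrays, at -3.60 in homozygous replicate 1 and -0.02 in heterozygous replicate 1, and gave -0.98 ± 0.44. On homozygous replicate 1 the mean of 6 visceral endoderm markers was 3.1 log2 units above the wild-type mean, the highest of the 12 arrays, against 1.79, -1.80 and -0.76 on the other homozygous arrays, 0.40 to 1.66 on the heterozygous and -1.13 to 1.52 on the wild-type arrays. The part these markers' tissue had in the Dll3 values was not tested.

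Nrarp came closest to the threshold of all members. It encodes an ankyrin repeat protein that is induced by Notch and dampens Notch signalling. Its scaled log2 signal was -2.93, -2.94, -2.67 and -2.31 in homozygotes, -1.29, -2.04, -2.08 and -2.28 in heterozygotes, and -1.65, -1.92, -2.23 and -1.72 in wild type. Every homozygous array lay below every wild-type and every heterozygous array, although the highest homozygous array, at -2.31, lay close to the lowest of each. Arrays that do not overlap in this direction were found for 8.21% of all tested genes against wild type and for 1.64% against heterozygotes. Nrarp averaged -2.71 ± 0.30 in homozygotes, -1.92 ± 0.44 in heterozygotes and -1.88 ± 0.26 in wild type (SD, n = 4 each). The log2 fold change over wild type was -0.83 ± 0.22, with an adjusted p of 0.0993 in limma. Within the slides the difference was -1.28, -0.87 and -0.76. Without heterozygous replicate 1, which enters this comparison through the shared estimate of spread and the filter (22594 genes tested without it), the adjusted p was 0.0424, and with that array left out and no filter on dim probes it was 0.0943. With position on the slide as a block, where position 1 held wild-type arrays alone, the fold change was -0.56 and the adjusted p was 1.

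**Figure D2:**
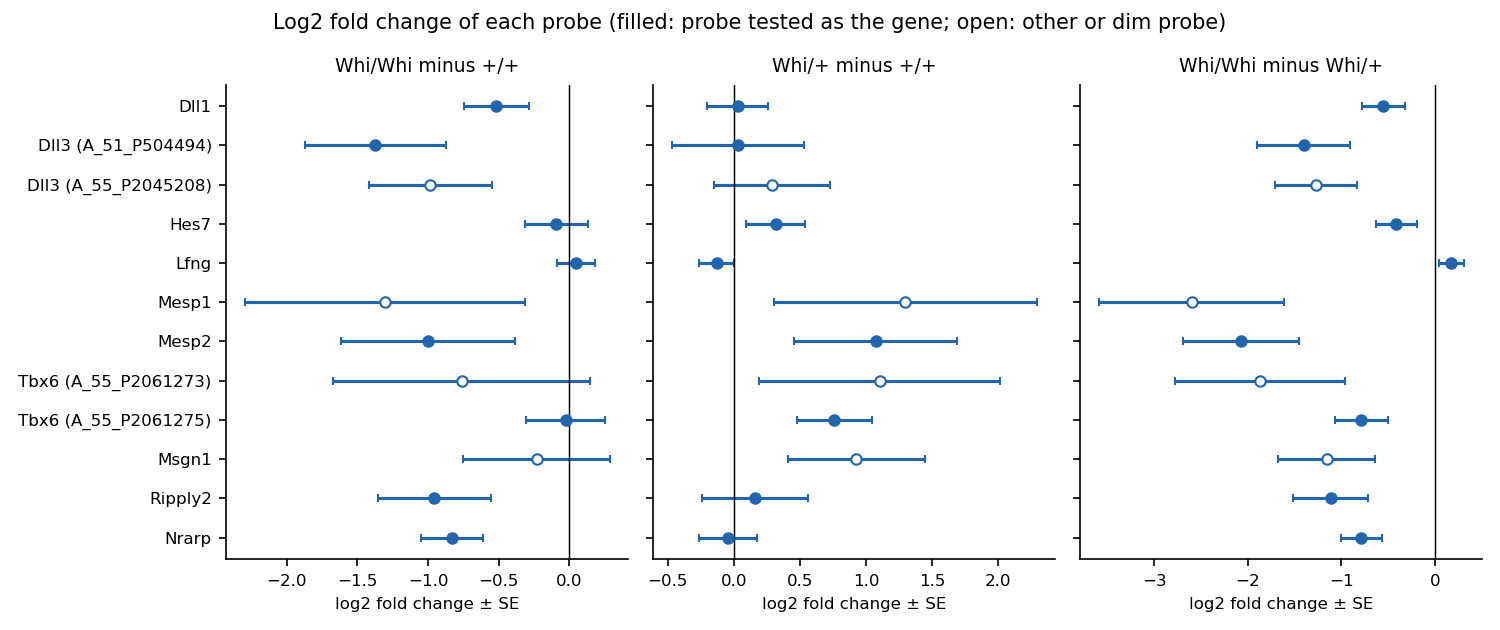
Log2 fold changes of the 12 member probes for homozygous minus wild type, heterozygous minus wild type and homozygous minus heterozygous, with bars for the standard error of the limma fit. The Nrarp fold change over wild type is -0.83 in homozygotes and -0.04 in heterozygotes; none of the tested members passed the threshold in any comparison.

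Both genes of the core oscillator showed the smallest homozygous differences beside the tested Tbx6 probe. Hes7, the repressor whose negative feedback drives the clock, read -0.93, -0.38, -0.75 and -0.66 in homozygotes, 0.44, -0.85, -0.36 and -0.32 in heterozygotes, and -0.60, -0.56, -0.76 and -0.43 in wild type. The homozygous arrays spanned the wild-type ones, and the fold change was -0.09 ± 0.22 (limma, adjusted p = 0.865). Lfng encodes a glycosyltransferase that modifies Notch and oscillates with Hes7. It read -2.28, -1.88, -2.13 and -1.67 in homozygotes, -1.94, -2.27, -2.19 and -2.27 in heterozygotes, and -1.96, -2.14, -1.97 and -2.07 in wild type. The wild-type arrays lay within a narrow band (SD 0.086), and of the homozygous arrays (SD 0.27) 1 lay below it, 1 inside it and 2 above it. The fold change was 0.05 ± 0.13 with an adjusted p of 0.887 in limma, and its sign turned to -0.07 with normexp background correction. For both genes, homozygotes and wild type differed by less than the SD between homozygous replicates.

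Tbx6 encodes the T-box factor that specifies paraxial mesoderm and switches on Mesp2. The 2 Tbx6 probes behaved differently across arrays. The tested probe read -3.62, -2.92, -3.11 and -3.20 in homozygotes, -1.59, -3.29, -2.36 and -2.46 in heterozygotes, and -3.13, -3.07, -3.41 and -3.14 in wild type. In all, 3 of the 4 heterozygous arrays lay above every other array, and the homozygous and wild-type arrays overlapped. Its fold change was -0.03 ± 0.28 in homozygotes (adjusted p = 0.974) and 0.76 ± 0.28 in heterozygotes (adjusted p = 0.267), each over wild type in limma. The second probe was far more spread out, at -4.28, -4.07, -4.03 and -3.86 in homozygotes, 0.66, -4.57, -2.36 and -2.49 in heterozygotes, and -4.39, -2.10, -4.56 and -2.14 in wild type. Its homozygous arrays lay close together, while its heterozygous and wild-type arrays fell at both ends of the range. In intensity units it reached 2124 on heterozygous replicate 1 and was 55.5 on heterozygous replicate 2. The fold change of this second probe in homozygotes was -0.76 ± 0.91 over wild type and -1.87 ± 0.91 over heterozygotes. Over heterozygotes it was -0.92 ± 0.72 without heterozygous replicate 1. Which transcripts each probe detects was not tested.

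Mesp2, the gene whose product sets the anterior border of the next somite, was dim. Its intensities were 11.9, 15.5, 15.03 and 12.5 in homozygotes, 83.0, 14.9, 124.9 and 38.6 in heterozygotes, and 24.5, 36.8, 10.8 and 59.3 in wild type. The homozygous values all lay near the lower end, where wild-type replicate 3 and heterozygous replicate 2 also lay. On the scaled log2 signal Mesp2 averaged -6.73 ± 0.42 in homozygotes, -4.66 ± 1.35 in heterozygotes and -5.73 ± 0.97 in wild type (SD, n = 4 each). The fold change of homozygotes was -1.003 ± 0.62 over wild type (limma, adjusted p = 0.427) and -2.08 ± 0.62 over heterozygotes (limma, adjusted p = 0.595).

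Mesp1, the neighbouring gene that marks early cardiac and paraxial mesoderm, had intensities of 19.6, 7.72, 14.7 and 12.03 in homozygotes, 151.2, 12.9, 194.1 and 52.6 in heterozygotes, and 11.3, 76.2, 8.56 and 139.5 in wild type. It was well above background on 2 homozygous, 3 heterozygous and 3 wild-type arrays. No homozygous array exceeded 20 units, whereas heterozygous and wild-type arrays fell on both sides of that level. Without the filter its fold change over wild type was -1.31 ± 0.99 in homozygotes (limma, adjusted p = 0.643). Msgn1, which encodes a factor that drives cells of the tail bud into presomitic mesoderm, was well above background on 1 homozygous, 3 heterozygous and 3 wild-type arrays. Its scaled log2 signal was -6.75, -6.83, -6.88 and -6.83 in homozygotes, -3.70, -6.36, -6.54 and -6.07 in heterozygotes, and -5.97, -6.68, -6.85 and -6.88 in wild type. Only heterozygous replicate 1 stood clear of the other 11 arrays. The homozygous fold change over wild type was -0.23 ± 0.52 without the filter (limma, adjusted p = 0.878). All homozygous arrays lay below all heterozygous arrays, an order found for 1.64% of all tested genes, though most of the homozygous values were not well above background. Over heterozygotes the Msgn1 fold change was -1.16 ± 0.52 with all arrays and -0.50 ± 0.21 without heterozygous replicate 1.

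Ripply2 encodes a partner of Tbx6 that ends Mesp2 expression once the border is set. Its scaled log2 signal was -2.71, -2.64, -2.23 and -2.53 in homozygotes, -1.44, -2.03, -1.12 and -1.07 in heterozygotes, and -2.11, -0.70, -2.70 and -0.77 in wild type. All homozygous arrays lay below all heterozygous arrays, an order found for 1.64% of all tested genes. The wild-type arrays fell into a high and a low pair. The fold change was -0.96 ± 0.40 over wild type (limma, adjusted p = 0.264) and -1.11 ± 0.40 over heterozygotes (adjusted p = 0.72). Within the slides the difference over wild type was -0.60, -0.94 and -1.61. With position on the slide as a block its sign turned, to 0.24, as that of Mesp2 did, to 0.27.

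Several members split the arrays in the same way, across the genotypes. Ordered by Mesp1 signal, the arrays showed their widest step, of 1.95 log2 units, between 5 arrays (heterozygous replicates 1, 3 and 4 and wild-type replicates 2 and 4) and the other 7. The same 5 arrays were the 5 highest for Mesp2, with a gap of 0.70 to the next array, for Ripply2 (0.59) and for the second Tbx6 probe (1.36). They were also highest for the second Dll3 probe, by 0.001 alone. In intensity, Mesp1 was 52.6 to 194.1 on these 5 arrays and 7.72 to 19.6 on the other 7, and Ripply2 was 496.0 to 953.4 and 213.6 to 344.1. None of the 4 homozygous arrays was among the 5. Of all 22576 tested genes, 16 had these same 5 arrays at the top, among them Mesp2 and Ripply2, the only tested members with this order. Mesp1, which set the 5 arrays apart, and the second probes of Tbx6 and Dll3 were not tested and lie outside that count. The widest gap among the 16 genes, 1.65, belonged to Cdx4, a homeobox gene of the posterior embryo, at 47.2 to 332.8 units against 6.57 to 16.1. Its 6.57 on homozygous replicate 1, 13.18 on homozygous replicate 4 and 8.89 on wild-type replicate 3 were not well above background. The lowest signals that were so on these arrays were 11.9, 15.5 and 16.1. Cdx4, like Mesp2, was therefore tested only through the heterozygotes, and the low side of its gap reaches background. Dll1, Hes7, Lfng, Msgn1, Nrarp and the tested probes of Dll3 and Tbx6 did not have this order. These arrays were set apart by their measured values, so the split is given as a description and no test was made of it.

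In heterozygotes no tested member passed the threshold over wild type, where 2 of all tested genes passed (0.00886%). The comparisons share arrays, so their values are set side by side only. At an unadjusted p below 0.05 the members counted 1 of 8, the tested Tbx6 probe, against 15.4% of all genes, and without heterozygous replicate 1 they counted 0 of 8, against 13.8%. Only 2 of 8 members were negative (43.1% of all genes), with a median of 0.09, and without Mesp2 2 of 7, with a median of 0.03. Without heterozygous replicate 1 the count over all 8 was 4 of 8 and the median -0.02. That array moved single members further: without it the heterozygous fold change over wild type was -0.46 ± 0.42 for Dll3, against 0.03 ± 0.50 with it. For the tested Tbx6 probe it was 0.48 ± 0.24 without the array. The second Tbx6 probe gave 0.15 ± 0.72 without it and 1.11 ± 0.91 with it, and Msgn1 0.27 ± 0.21 and 0.93 ± 0.52. Measured against the mean of the other 11 arrays, heterozygous replicate 1 was higher by 2.11 for Dll3, 1.85 for Mesp2, 1.47 for Tbx6, 1.04 for Hes7, 0.97 for Nrarp, 0.69 for Dll1, 0.44 for Ripply2 and 0.14 for Lfng. Their ranks among all tested genes ran from 31 for Dll3 to 1587 for Ripply2 and 6665 for Lfng. The posterior genes Evx1 and Cdx4 were higher by 5.61 and 4.05 on that array, ranks 1 and 4 of 22576 genes.

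Between homozygotes and heterozygotes, none of the 8 tested members passed, where 3 of all tested genes did (0.0133%). At an unadjusted p below 0.05 the members counted 6 of 8, all lower, against 5.99% of all genes and 3.73% counting lower genes alone. Without heterozygous replicate 1 they counted 5 of 8, all lower, against 5.67% of all genes and 3.24% counting lower genes alone, and Dll1 was the member no longer counted. Mesp2 was tested only because the heterozygotes were bright, so its low value here was favoured by the filter. Leaving Mesp2 out, the count was 5 of 7 with all arrays and 4 of 7 without heterozygous replicate 1. The 6 members counted with all arrays were Nrarp at -0.79 ± 0.22 (limma, adjusted p = 0.541), Mesp2, Dll3 at -1.41 ± 0.50, Ripply2, Tbx6 at -0.79 ± 0.28 and Dll1 at -0.55 ± 0.23. Hes7 was at -0.41 ± 0.22 and Lfng at 0.18 ± 0.13. In all, 7 of 8 members were negative, against 59.0% of all tested genes, and the median was -0.79. Without heterozygous replicate 1, again 7 of 8 were negative and the median was -0.54. In a fit of every probe with no filter, Nrarp was then at -0.57 ± 0.19, Dll3 at -0.92 ± 0.42, Tbx6 at -0.51 ± 0.24 and Dll1 at -0.40 ± 0.24. In the same fit Mesp2 was at -1.86 ± 0.70, Ripply2 at -1.12 ± 0.47, Hes7 at -0.17 ± 0.17 and Lfng at 0.25 ± 0.14. The limma adjusted p was 0.877 for Hes7 and 0.866 for each of the other 7.

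Genes around the clock were read from 3 lists. Of 30 further Notch pathway genes (receptors, other ligands, cofactors, targets and processing enzymes), 28 were on the array and tested, and none passed in any comparison. In homozygotes over wild type 15 of the 28 were negative, with a median of -0.10. At an unadjusted p below 0.05 in limma they counted 10 of 28, against 17.0% of all tested genes. Of these, Hes5, Jag1, Hey1, Dtx4, Heyl, Mib1 and Hey2 were lower, and Dtx1, Notch2 and Ncstn were higher. The smallest p values belonged to Hes5, a Notch target of neural progenitors, at -0.74 ± 0.18 (limma, adjusted p = 0.0789), and Dtx1, a modifier of Notch trafficking, at 0.45 ± 0.13 (adjusted p = 0.118). Hes5 intensities were 13450, 11210, 12670 and 20110 in homozygotes, 15900, 21650, 15750 and 12590 in heterozygotes, and 29760, 20020, 18820 and 27110 in wild type. On the scaled level used in the test, Hes5 lay at 2.97 to 3.66 in homozygotes, below the 3.76 to 4.33 of wild type, an order found for 8.21% of all tested genes.

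Of 27 presomitic Wnt, Fgf and tail bud genes, 2 fell and 0 rose in homozygotes over wild type, with 16 of 27 negative and a median of -0.12. Over all tested genes 1.35% passed, 46.5% were negative and the median was 0.021. Hes3, a relative of Hes7, fell by 0.48 on the log2 scale (SE 0.10, limma adjusted p = 0.0458), to intensities of 2378, 1771, 1590 and 1836 in homozygotes, against 2547, 2512, 2873 and 2569 in wild type. Cdx1, a posterior homeobox gene, fell by 0.81 (SE 0.17, adjusted p = 0.0371). Neither passed when dim probes were kept in the test, where 188 of all genes passed. Of 18 genes of somite formation and somite derivatives, 2 fell and 0 rose, with 16 of 18 negative and a median of -0.32, beside the same shares and median over all genes. These were Twist1, a factor of mesenchyme (-0.94 ± 0.13, adjusted p = 0.00394), and Meox2, a homeobox gene of the somite (-1.51 ± 0.22, adjusted p = 0.0074). In heterozygotes over wild type, and in homozygotes over heterozygotes, none of these genes passed. In homozygotes over heterozygotes, 25 of the 27 and 16 of the 18 were negative, against 59.0% of all tested genes. Their medians were -0.395 and -0.42. Without heterozygous replicate 1, 23 of the 27 and 16 of the 18 were negative, against 58.5% of all tested genes. The medians were then -0.258 and -0.394. With all arrays, at an unadjusted p below 0.05 in limma, these lists counted 11 of 27 and 8 of 18, against 5.99% of all tested genes. The 11 include Cdx4, which was tested only through the heterozygotes. These counts were not computed without heterozygous replicate 1. Of the other Notch pathway genes, 19 of 28 were negative, with a median of -0.046, and without that array 18 of 28, with -0.047. The homozygous arrays had mean list levels of -0.53 to -0.38 for somite formation, below the -0.10 to 0.15 of wild type. Heterozygous replicate 4, at -0.40, lay inside that homozygous range. For the presomitic list the homozygous arrays, at -0.35 to -0.10, were also below wild type, at -0.07 to 0.07. For the clock members they ran from -1.02 to -0.40 and overlapped the -0.53 to 0.30 of wild type. How often lists of other genes separate in this way was not computed.

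**Figure D3:**
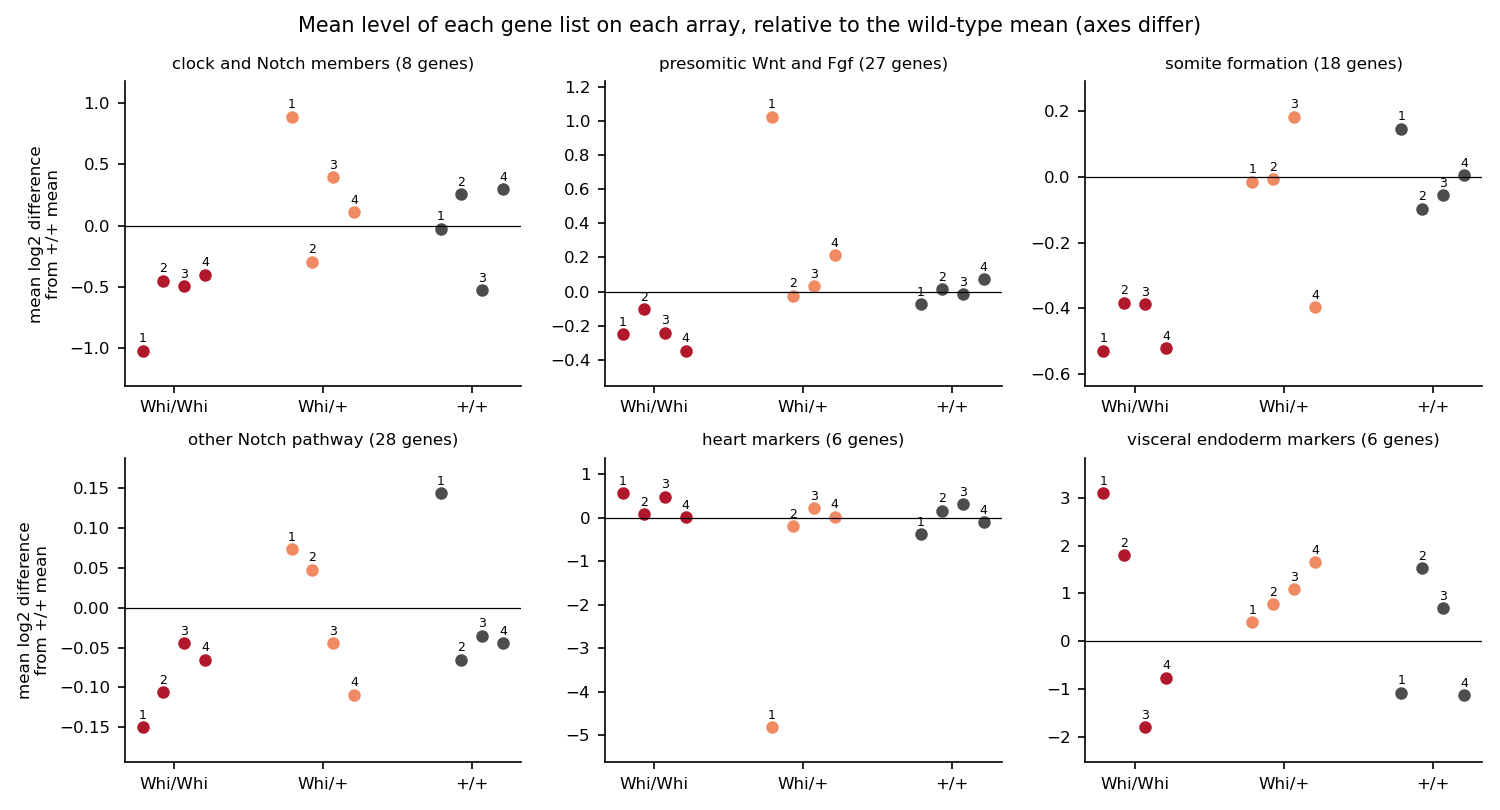
Mean level of each gene list on each array, in log2 units relative to the wild-type mean, with homozygotes left, heterozygotes in the middle and wild type right. Heterozygous replicate 1 lies at -4.82 for heart markers and at 1.02 for the presomitic Wnt and Fgf genes.

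Across the 12 arrays, the gene most like the mean of the 8 tested members was Cdx4. The likeness was Pearson's r over the 12 arrays among 15021 named genes, with heterozygous and homozygous replicate 1 as the most distant arrays. Cdx4 had r = 0.948 (Spearman's rho 0.867, and r 0.897 without these 2 arrays). Next came the homeobox gene Hoxc8 (0.877, 0.649 without them), the phosphatase gene Ppef2 (0.874, 0.787), the homeobox gene Hoxa9 (0.858, 0.701) and the protocadherin gene Pcdh19 (0.854, 0.796). Hoxd1, Gpr84 and Acot7 followed at 0.836, 0.836 and 0.83. The members were centred but not scaled to their spread, so those with wide ranges weighed more in the mean. Over the 12 arrays the tested Dll3 probe ranged over 4.1 log2 units and Mesp2 over 3.85, against 0.61 for Lfng. Mesp2, Cdx4 and Gpr84 were tested only through the heterozygotes, and no likeness without Mesp2 was computed. The points share arrays, genotypes and the differences in marker levels described above, so these values are descriptions and carry no p. Of these 8 genes, Pcdh19 alone passed in homozygotes over wild type, at -0.995 with an adjusted p of 0.0188 in limma, with intensities of 736.1, 815.8, 638.0 and 786.7 in homozygotes against 1523, 1563, 1074 and 1915 in wild type.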

How the data were processed

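Spots were quantified in 1 channel (Cy3) with Agilent Feature Extraction 10.7.3.1, per the file headers. The submitters' processing notes name the same program and limma. The intensity values are the deposited processed signals, corrected for background within each array and not scaled between arrays, per the file headers. The deposited value table held the same intensities. From these, log2 signals scaled to each array's 75th percentile over unflagged spots were computed. Control spots (1377) and outlier-flagged spots (171 to 386 per array) were left out, and spots of a probe were averaged. Probes were named through a RefSeq table of GRCm38.p6 (26055 of 39429). The brightest probe stood for a gene. Only probes well above background on every array of some genotype were tested. One model with a mean per genotype was fitted to the 12 arrays (lmFit and eBayes of limma 3.58.1, R 4.3.3) and adjusted by Benjamini-Hochberg over 22576 genes at 0.05. The fit was tested on simulated data.

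The members, lists and tests were chosen with earlier results of these data known. Named genes were all members, list genes past the threshold (or the 2 smallest p where none passed) and the 8 genes most like the members. Lists are described by counts and medians. Replicates are numbered in accession order. Title numbers are shared by some samples across genotypes, and nothing in the labels says what they mark. Alternatives covered background correction, scaling, filter, probe choice, blocks, array weights, the variance model and each array left out in turn. No count of reads exists for arrays, so the number of arrays limits precision. Figures were drawn with matplotlib 3.10.9.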

Additional observations from a re-analysis of the deposited data

Results flagged for a closer look

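Among the 36 combinations of a member probe and a genotype, 2 held an array far from the other arrays of its genotype by Dixon's criterion for 4 samples, which chance meets in about 1 in 20 groups. Both were heterozygous replicate 1. For the tested Dll3 probe its scaled log2 signal was 1.14 and the nearest heterozygous array was at -0.67, a gap of 0.875 of the range. For Msgn1 it was -3.70 and the nearest was at -6.07, a gap of 0.836 of the range. The heart markers were low and the posterior genes Evx1, Cdx2, T and Cdx4 high on the same array, and their part in these values was not tested.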

How the results depend on the processing

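In the 26 alternatives, no tested member passed in any comparison, except Nrarp in homozygotes over wild type without heterozygous replicate 1 (adjusted p = 0.0424, against 0.0572 to 1 in the others). Among the recomputed member fold changes, 566 kept direction and call and 30 changed sign; causes were not tested. In homozygotes over wild type, array position as a block gave -0.24 for Lfng, 0.27 for Mesp2, 0.24 for Ripply2, 0.042 for Tbx6, a member median of -0.12 and 20 genes called. The title number as a replicate block, a pairing nothing in the labels supports, gave 0.13 for Hes7, 0.29 for Tbx6 and 19 genes. Deviations of the 11 same-numbered pairs across genotypes correlated at -0.315 to 0.293. Normexp gave -0.073 for Lfng and 90 genes, array weights 0.019 for Tbx6 and 542 genes, and no filter 188 genes. In heterozygotes over wild type, normexp gave -0.018 for Dll1 and 0 for Nrarp, median scaling -0.039 for Dll1 and -0.04 for Dll3, position -0.52 for Dll3 and 0.14 for Nrarp, array weights 0.12 for Nrarp and the replicate block -0.024 for Ripply2. Genes called there were 5 with no filter, 0 with the replicate block and 1 with normexp, the strict filter, only the 2 genotypes compared or the trend and robust variance. In homozygotes over heterozygotes they were 7 with array weights, 1 with quantile normalization and 0 with normexp, position, replicate block or only the 2 genotypes compared. Leaving out each array gave, for homozygotes over wild type, 112 to 443 genes called, 0 to 1 members called, -0.059 to 0.14 for Lfng and -0.12 to 0.11 for Tbx6. For heterozygotes over wild type it gave 0 to 2 genes, -0.15 to 0.18 for Dll1, -0.46 to 0.23 for Dll3, -0.26 to 0.077 for Nrarp and -0.22 to 0.45 for Ripply2, and for homozygotes over heterozygotes 1 to 6 genes. Mesp1, Mesp2 and Msgn1 were not well above background on every array, which limits their values.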
